A study of Homo sapiens with 12 samples.

Results

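The 32 genes described here encode enzymes of cholesterol synthesis, the SREBP transcription factors with their regulators, and the lipid genes that SREBPs are known to activate. They were chosen by symbol, and each of the 32 symbols occurred once in the deposited table of 26341 genes. All 32 passed the filter on low counts, as did 15890 genes in all. The genes are 17 sterol synthesis enzymes (7 from acetyl-CoA to farnesyl diphosphate and 10 from squalene to cholesterol), 5 SREBP factors and regulators, the sterol carrier STARD4, and 9 genes of fatty acid and lipid synthesis. RNA came from DU145, a human prostate cancer line that grew out of a metastasis in the central nervous system and does not depend on androgen. Each of 4 groups had 3 libraries. Control cells (Ctrl) received DMSO as vehicle, TPL cells 2 nM triptolide, DAC cells 33 nM decitabine, and DACTPL cells both drugs. The decitabine dose of DACTPL is not settled, because the sample characteristics give 33 nM and the treatment protocol 3 nM. Drug was given daily for 3 days, and RNA was taken after a further 17 days without drug. Decitabine is a cytidine analogue that depletes DNA methyltransferases, and triptolide is a plant diterpenoid that inhibits TFIIH, a general transcription factor. The question of the study was whether triptolide sensitizes cancer cells to nucleoside inhibitors of DNA methyltransferases. All groups derive from this line, and the labels do not say whether replicates were separate cultures, so p-values measure no more than how far these samples spread, and that spread may be technical.

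SREBPs are made as precursors in the membrane of the endoplasmic reticulum. When sterols run low, the escort protein SCAP carries the precursor to the Golgi, where proteases release the active factor, and when sterols are plentiful the INSIG proteins hold SCAP back. SREBF2 encodes the form that acts mainly on cholesterol synthesis, and SREBF1 the form that acts mainly on fatty acid synthesis. INSIG1 is itself an SREBP target, so its transcript is widely read as a gauge of SREBP activity. Prostate cancers are known for high lipid synthesis. Transcript levels, the quantity measured here, do not show how much SREBP was processed.

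SREBPs bind sterol regulatory elements next to sites of the CCAAT factor NF-Y and the GC box factor Sp1, so promoters of the genes were searched for these letters. Promoter windows came from RefSeq on GRCh38.p14, a build other than the hg19 of the expression files, and 28 of the 32 genes had a window there. SQLE, FDFT1, ACAT2 and FASN were not among them. Both strands were searched for a sterol-element-like motif (TCACNCNAC), the CCAAT box (CCAAT), the GC box (GGGCGG) and an E box (CACGTG). No pair of these motifs has the same letters, but matches were allowed to overlap. The sterol-element-like motif was in 5 of the 28 genes (17.9%; FDPS, HSD17B7, SREBF2, FADS2 and ACSS2), against 2.48% of 27305 genes with a window. CCAAT was in 18 (64.3%, against 37%) and GGGCGG in 26 (92.9%, against 46.2%). CACGTG was in 2 (7.14%, against 7.73%), namely SCAP and INSIG1. A match is a description of letters and not a shown binding site, and whether matches go with the changes below was not tested. The following 200 bases before the start site are given for genes named in the results below, 5′ to 3′ on the strand of the gene, with the sterol-element-like motif and CCAAT (or its reverse, ATTGG) in capitals. PMVK, CYP51A1 and EBP were lower in DACTPL than in TPL and had windows with no match to the sterol-element-like letters. FDPS and ACSS2, which hold a match, were lower in DAC than in Ctrl. SREBF2 and FADS2, which also hold a match, did not pass the test in any comparison of the main fit. FDPS (chr1:155308666-155308865, plus strand) and HSD17B7 (chr1:162790502-162790701, plus strand) were both lower in DACTPL than in TPL and hold both motifs.
FDPS: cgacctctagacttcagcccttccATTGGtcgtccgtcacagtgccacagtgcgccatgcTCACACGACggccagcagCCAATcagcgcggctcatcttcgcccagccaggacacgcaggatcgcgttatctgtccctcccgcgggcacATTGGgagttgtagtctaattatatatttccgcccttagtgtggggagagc
HSD17B7: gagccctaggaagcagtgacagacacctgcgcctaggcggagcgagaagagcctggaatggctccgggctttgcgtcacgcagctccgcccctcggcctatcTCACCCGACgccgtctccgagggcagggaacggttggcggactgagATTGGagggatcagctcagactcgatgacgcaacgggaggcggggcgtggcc
HMGCS1 (chr5:43313413-43313612, minus strand) and INSIG1 (chr7:155297678-155297877, plus strand) were both lower in DAC than in Ctrl and hold CCAAT boxes with no match to the sterol-element-like letters in this window.
HMGCS1: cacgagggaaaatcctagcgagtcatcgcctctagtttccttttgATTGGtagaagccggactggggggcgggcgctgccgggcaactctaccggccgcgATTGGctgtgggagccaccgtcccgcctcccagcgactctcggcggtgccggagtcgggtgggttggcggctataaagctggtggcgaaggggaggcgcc
INSIG1: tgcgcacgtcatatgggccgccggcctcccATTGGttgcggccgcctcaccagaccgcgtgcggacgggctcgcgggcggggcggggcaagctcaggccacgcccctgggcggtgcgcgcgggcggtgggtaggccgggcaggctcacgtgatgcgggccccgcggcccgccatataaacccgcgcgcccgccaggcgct
SREBF2 (chr22:41832905-41833104, plus strand) encodes a factor that is known to activate its own gene.
SREBF2: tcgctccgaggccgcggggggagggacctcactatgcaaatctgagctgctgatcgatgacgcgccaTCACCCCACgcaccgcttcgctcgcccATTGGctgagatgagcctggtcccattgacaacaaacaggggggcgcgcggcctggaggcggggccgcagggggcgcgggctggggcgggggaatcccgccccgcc
In these windows the sterol-element-like motif began at position -140 from the start in FDPS, -98 in HSD17B7 and -133 in SREBF2. Each of the 3 also held a CCAAT box, at positions -122, -52 and -106 in that order, counting the nearest to the motif.

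Libraries held 26.4 to 47 M expected counts, and normalization factors ran from 0.957 to 1.028. The lowest count of any of the 32 genes in any library was 407. Epithelial markers summed to between 2040 and 2760 CPM (counts scaled to the size of the library) in each library, and the prostate kallikreins KLK3 and KLK2 had 1 and 6 counts in total, as is known for DU145. Taken over genes, the log2 difference of a library from the 12-library mean had a Spearman correlation with gene length between -0.386 (TPL replicate 1) and 0.285 (DACTPL replicate 2), and with GC content of the transcript between -0.221 (Ctrl replicate 2) and 0.243 (DAC replicate 3). Markers of other cell types were low, although none of the 9 was at 0 in all 12 libraries. The sums were at most 14.5 CPM for 4 stromal, 2.8 CPM for 3 blood and 1.66 CPM for 2 endothelial markers. In Ctrl those sums were 8.22 to 10.7, 1.69 to 2.18 and 0.683 to 0.961 CPM, in TPL 7.94 to 11.9, 2.19 to 2.69 and 0.464 to 1.22 CPM, and in DAC 7.98 to 12.2, 2.11 to 2.48 and 1.11 to 1.36 CPM. In DACTPL they were 12.5 to 14.5, 2.34 to 2.8 and 1.21 to 1.66 CPM. COL1A1 made up most of the stromal sum and CD14 most of the blood sum, and other markers differed between groups within the sums, as given below for DAC and DACTPL, while 0 of these and of the epithelial markers were called in TPL against Ctrl.

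The libraries numbered 3 stood apart for these genes, in TPL in both directions. Replicate 3 had the highest level of its group for 27 of the 32 Ctrl values, 17 of the TPL, 27 of the DAC and 20 of the DACTPL values, while for all genes tested the shares were 37.1%, 44.1%, 39.3% and 26.5%. It had the lowest level for 4 of the Ctrl, 12 of the TPL, 1 of the DAC and 1 of the DACTPL values. Shares of all genes for the lowest level are not given here. The summed level of the sterol enzymes was lowest in replicate 3 in TPL, at 2454 CPM. The median difference of replicate 3 from the mean of replicates 1 and 2 was 0.14 on the log2 scale for Ctrl, 0.03 for TPL, 0.18 for DAC and 0.09 for DACTPL, against medians of -0.0054, 0.012, -0.00365 and -0.0055 over all genes. An example is SCD, the desaturase that makes oleate. Its level was 1925, 1920 and 2507 CPM in Ctrl, 2054, 1949 and 2968 CPM in TPL, 1763, 1733 and 2488 CPM in DAC, and 2297, 2729 and 2842 CPM in DACTPL, replicates 1 to 3 in order. Replicate 3 was thus highest for SCD in every group, and in DACTPL replicate 2 was high as well. FASN, the fatty acid synthase, was also highest in replicate 3 of Ctrl, with 546, 571 and 757 CPM, and of DAC, with 451, 517 and 703 CPM. LBR, PMVK, HSD17B7, ELOVL6 and ACAT2 were highest in replicate 3 in just 1 of the 4 groups each. Across the 32 genes, the excess of replicate 3 had a Spearman correlation with GC content of 0.55 for Ctrl, 0.22 for TPL, 0.37 for DAC and -0.10 for DACTPL, and with gene length of 0.06, 0.65, 0.31 and 0.20. Over all genes the same values were 0.27, 0.06, 0.19 and -0.24 for GC content and -0.02, 0.34, 0.28 and 0.14 for length. These are descriptions over genes of the same libraries, and the part of GC content and length in the excess was not tested.

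**Figure D1:**
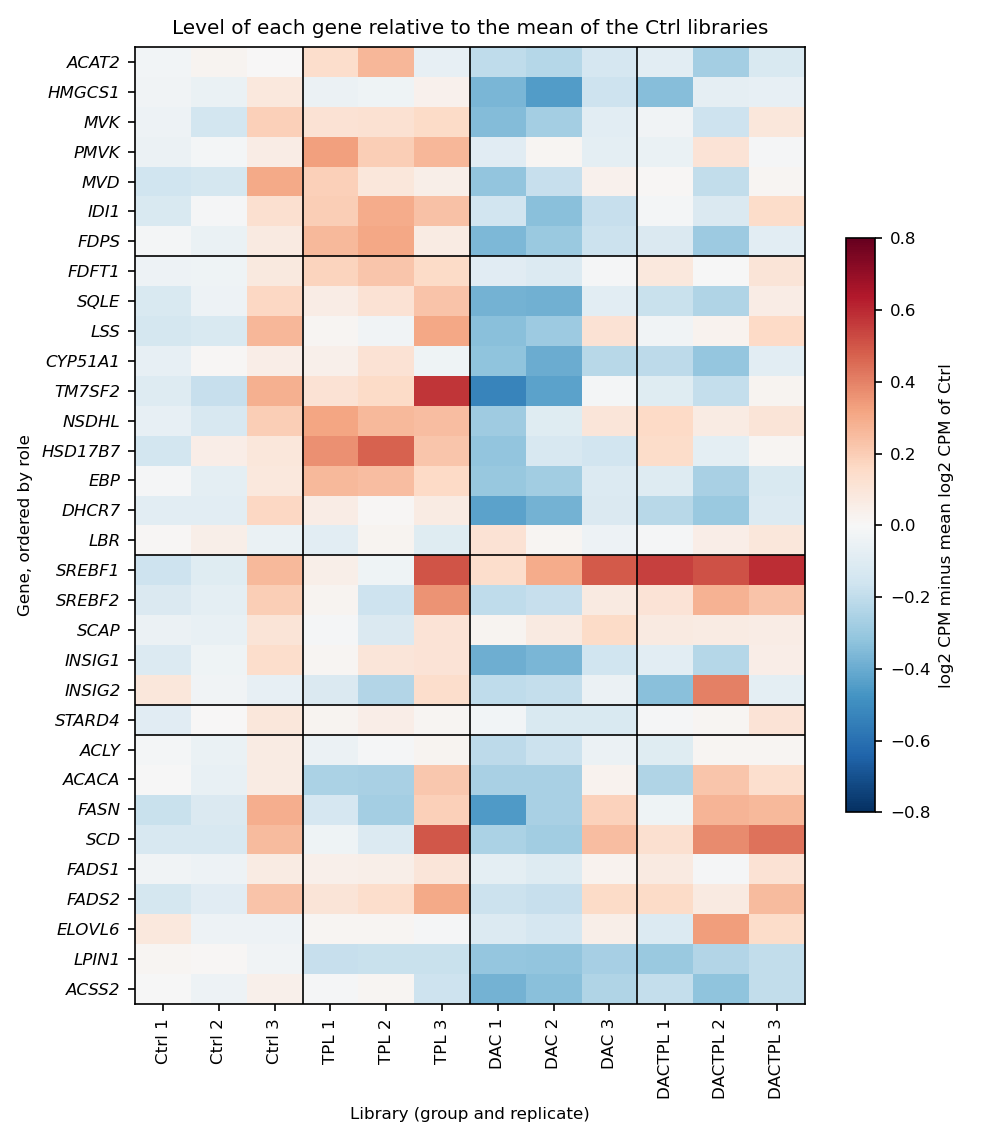
Level of each of the 32 genes (rows, ordered by role) in each of the 12 libraries (columns), as log2 CPM minus the mean log2 CPM of the 3 Ctrl libraries, red for higher and blue for lower. The DAC columns are mostly blue among the sterol enzymes in replicates 1 and 2 and paler in replicate 3, SREBF1 is red across DACTPL, and SCD is red in the libraries numbered 3.

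Per length, SCD had the highest level of the 32 genes in Ctrl, at 509 ± 74.1 TPM, a scale that also corrects for transcript length (mean ± SD, n = 3 here and below). FDPS, which makes farnesyl diphosphate, followed at 375 ± 13.8 TPM. FADS2, ACLY and FADS1 came next at 204 ± 26.5, 198 ± 6.79 and 189 ± 5.78 TPM, and these 3 did not differ beyond their spread. FDFT1, the squalene synthase, was at 173 ± 5.99 TPM and CYP51A1, the lanosterol demethylase, at 145 ± 3.39 TPM. SREBF2 was at 51.2 ± 5.57 TPM and SREBF1 at 20.5 ± 3.05 TPM, so the SREBF2 transcript was the more abundant form. SCAP was at 18.4 ± 0.945 TPM, close to PMVK and MVK at 18.2 ± 0.442 and 17.9 ± 1.97 TPM. INSIG1 was at 68.6 ± 5.03 TPM and INSIG2, its relative, was the lowest of the 32 at 9.06 ± 0.661 TPM.

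After decitabine alone, 4 enzymes of sterol synthesis, the regulator INSIG1 and 2 lipid genes fell. In DAC against Ctrl, 7 of the 32 genes fell and 0 rose, while 3.59% of all genes tested fell, 6.27% rose and 9.86% changed in either direction. The 7 were HMGCS1, FDPS, CYP51A1 and DHCR7 of sterol synthesis, the regulator INSIG1, and the lipid genes LPIN1 and ACSS2, with folds between 0.7995 and 0.826. A further 7 genes had an unadjusted p under 0.05, all lower (ACAT2, MVK, IDI1, SQLE, HSD17B7, EBP and ACLY), which made 14 of 32, against 25.9% of all genes at that threshold in either direction. Of the 17 sterol enzymes 16 had a log2 fold change below 0, with a median of -0.23 against 0.0063 for all genes tested, and 48.5% of all genes were below 0. Cells that hold less of a transcript and fewer cells that hold it cannot be told apart in RNA from whole cultures. Of the markers of other cell types, the stromal COL1A2 and PDGFRB and the blood marker PTPRC rose in DAC against Ctrl, 3.23-fold, 2.16-fold and 2.87-fold (edgeR adjusted p = 0.0363, 0.00972 and 0.0134), from means of 0.102, 0.356 and 0.218 CPM to 0.339, 0.770 and 0.603 CPM. Of the epithelial markers KRT8 rose 1.35-fold and EPCAM fell to 0.868 of its Ctrl level (edgeR adjusted p = 0.000809 and 0.0207). The part of these markers in the results was not tested.

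HMGCS1, the synthase that feeds the mevalonate pathway, was at 228, 225 and 247 CPM in the Ctrl libraries and at 181, 171 and 208 CPM in DAC. All DAC libraries lay below all Ctrl libraries, and DAC replicate 3 was the highest of its group. The log2 fold change was -0.32 ± 0.08 (SE; edgeR's quasi-likelihood test, Benjamini-Hochberg adjusted p = 0.0307). FDPS was at 349.9, 340.2 and 371 CPM in the Ctrl libraries and at 276, 287 and 313 CPM in DAC. The groups did not overlap, and the log2 fold change was -0.28 ± 0.08 (edgeR adjusted p = 0.0427). In the part of the pathway after squalene, CYP51A1 was at 315, 332 and 343 CPM in the Ctrl libraries and at 264, 251 and 283 CPM in DAC. Its groups did not overlap either, with a log2 fold change of -0.31 ± 0.07 (edgeR adjusted p = 0.0138). DHCR7, the reductase of the last step to cholesterol, was at 193, 193 and 229 CPM in the Ctrl libraries and at 152, 157 and 188 CPM in DAC. Here DAC replicate 3 came close to the lower Ctrl libraries, and the log2 fold change was -0.31 ± 0.09 (edgeR adjusted p = 0.0470). EBP, the sterol isomerase, missed the threshold with 59, 56.2 and 63 CPM for Ctrl and 48, 49 and 55 CPM in DAC (log2 fold change -0.23 ± 0.07, edgeR adjusted p = 0.0519). LBR, a sterol reductase that also anchors chromatin to the nuclear envelope, was the sterol enzyme on the other side of 0, at 0.03 ± 0.06.

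Among the regulators, INSIG1 was at 137, 144 and 162 CPM in the Ctrl libraries and at 112, 114 and 132 CPM in DAC. Each DAC library lay below the lowest Ctrl library, with a log2 fold change of -0.31 ± 0.09 (edgeR adjusted p = 0.0412). The factors themselves did not pass the test. SREBF1 had a log2 fold change of 0.30 ± 0.15 (adjusted p = 0.218), SREBF2 of -0.11 ± 0.13 (adjusted p = 0.653), SCAP of 0.08 ± 0.07 (adjusted p = 0.481) and INSIG2 of -0.15 ± 0.16 (adjusted p = 0.601). Of the lipid genes, LPIN1, a phosphatidate phosphatase that also acts in the nucleus, was at 99.1, 98.5 and 96.2 CPM in the Ctrl libraries and at 78.9, 78.6 and 81.4 CPM in DAC. Its replicates lay close together and the groups far apart, with a log2 fold change of -0.30 ± 0.05 (edgeR adjusted p = 0.00113). ACSS2, which makes acetyl-CoA from acetate, was at 122.7, 119.8 and 127 CPM in the Ctrl libraries and at 94.8, 97.4 and 104 CPM in DAC. The groups did not overlap, and the log2 fold change was -0.32 ± 0.06 (edgeR adjusted p = 0.00623). FASN and SCD were at -0.16 ± 0.18 and -0.09 ± 0.19, with 95% intervals from -0.57 to 0.24 and from -0.50 to 0.32, and their DAC and Ctrl libraries overlapped.

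**Figure D2:**
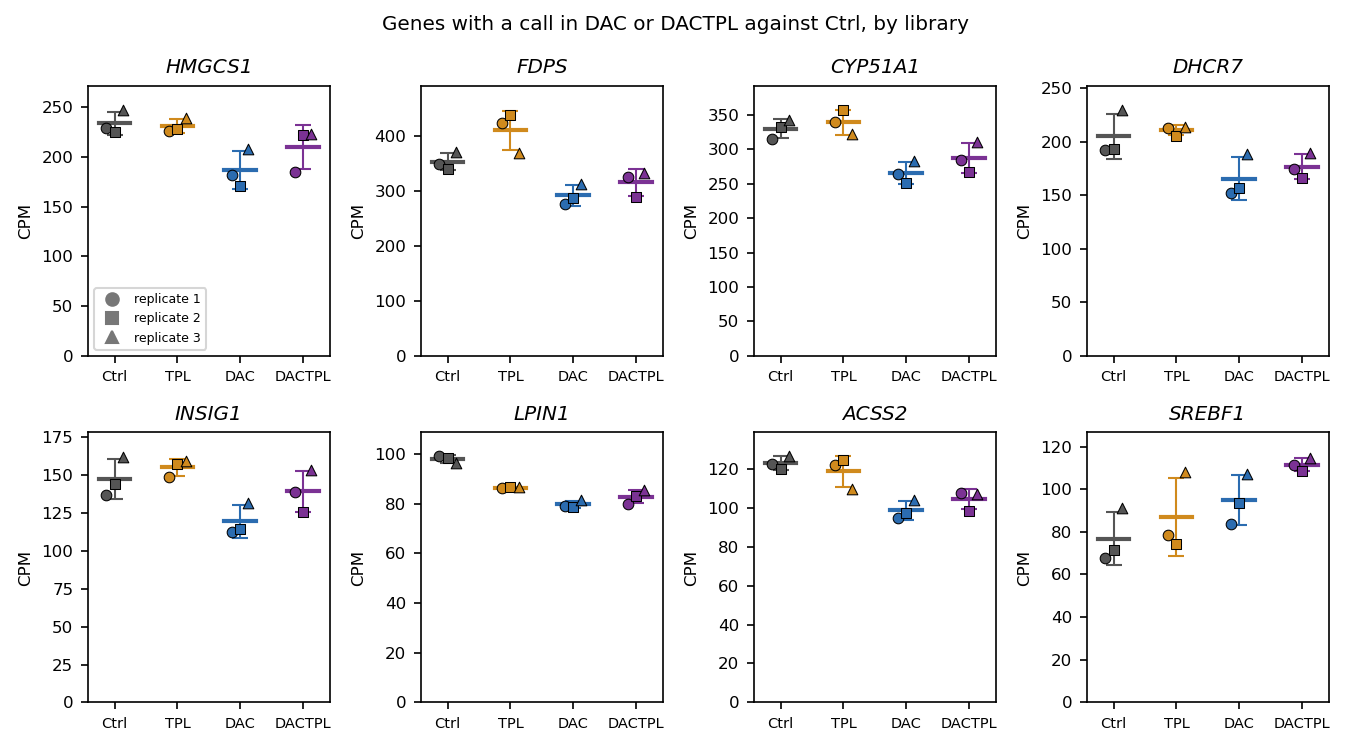
CPM of the 8 genes called in DAC or DACTPL against Ctrl, by library (circle, square and triangle for replicates 1, 2 and 3), with the group mean as a line and the SD as a bar (n = 3). The first 7 genes are lower in every DAC library than in every Ctrl library, and SREBF1 is at 108.5 to 115 CPM in DACTPL against 67.95 to 91.25 CPM in Ctrl.

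In DAC against Ctrl the libraries did not overlap for 10 of the 32 genes, all lower in DAC, while 15.3% of all genes lay wholly lower and 18.1% wholly higher. Without the libraries numbered 3 of all groups, 12 genes fell and SREBF1 rose, when 17.6% of all genes changed in either direction, and all 7 genes above were among the 12. That fit held 2 libraries per group. The libraries numbered 3 were set apart for their higher level of most of these genes, so fits without them are a description, here and below. The count of 7 fell to 3 without Ctrl replicate 1, 2 without Ctrl replicate 2, 3 without Ctrl replicate 3, and 2 without either DAC replicate 1 or DAC replicate 2. LPIN1 and ACSS2 were called in each of these. For fits under other settings, here and below, shares of all genes called are not given unless stated. Such counts describe the settings and are no result about the 32 genes. The authors' deposited table gave 8 of the 32 genes lower at an adjusted p under 0.05 and 0 higher, when 9.81% of its genes with an adjusted p were called.

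**Figure D3:**
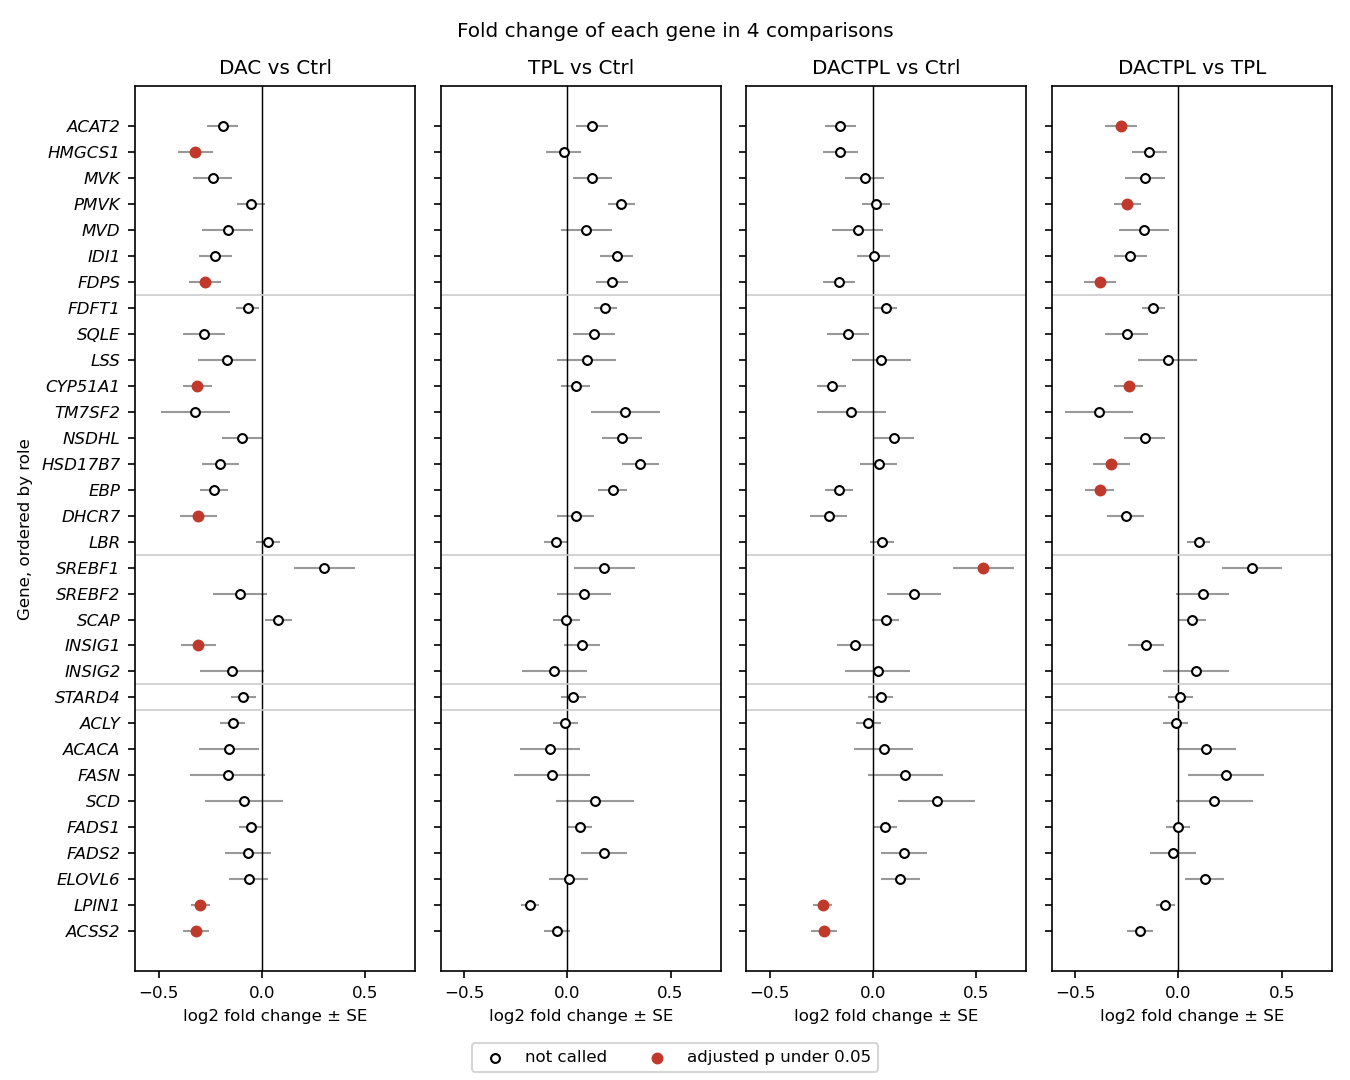
Log2 fold change with its SE for each of the 32 genes (rows, ordered by role) in 4 comparisons (panels). Filled red points passed an adjusted p of 0.05 in edgeR's quasi-likelihood test, 7 in DAC vs Ctrl, 0 in TPL vs Ctrl, 3 in DACTPL vs Ctrl and 6 in DACTPL vs TPL; the first 3 panels share the Ctrl libraries.

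After triptolide alone, 0 of the 32 genes passed edgeR's test, when 2.47% of all genes did, 1.68% higher and 0.787% lower. At an unadjusted p under 0.05 there were 7 genes higher and 1 lower, against 18.9% of all genes, and DESeq2 called 4 (PMVK, FDFT1 and HSD17B7 higher, LPIN1 lower). Of the 17 sterol enzymes 15 lay above 0, with a median of 0.13 against -0.00034 for all genes, whereas on log2(TPM + 1) the enzyme median was -0.23 when the median of all genes was itself shifted to -0.29. On that scale 16 genes were called, all lower, INSIG1 among them, and after rescaling the TPM between libraries 0 were. The shares of all genes called by DESeq2 and on the TPM scales are not given here, so these counts describe the settings. HSD17B7, which works in the removal of sterol methyl groups, was at 24.5, 28.1 and 28.8 CPM in the Ctrl libraries and at 34.9, 37.5 and 31.6 CPM in TPL. Every TPL library was above every Ctrl library, and the log2 fold change was 0.35 ± 0.09 (edgeR adjusted p = 0.0555). PMVK, the phosphomevalonate kinase, was at 15.6, 15.9 and 16.8 CPM in the Ctrl libraries and at 20.2, 18.4 and 19.4 CPM in TPL (log2 fold change 0.26 ± 0.07, edgeR adjusted p = 0.0587). IDI1, FDFT1, NSDHL and EBP were also higher in every TPL library than in every Ctrl library, at 0.24, 0.18, 0.26 and 0.22. In all, 6 genes lay wholly higher in TPL (11.3% of all genes) and LPIN1 wholly lower (11.1%).

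The gene that was wholly lower in TPL, LPIN1, was at 86.2, 86.65 and 86.5 CPM in TPL, below the 96.2 to 99.1 CPM of Ctrl, with a log2 fold change of -0.18 ± 0.05 (edgeR adjusted p = 0.0567). HMGCS1 was at 225.5, 228 and 239 CPM in TPL, within the range of Ctrl, and its log2 fold change of -0.02 ± 0.08 had a 95% interval from -0.20 to 0.17. The regulators did not pass the test in TPL against Ctrl. The log2 fold changes were 0.18 ± 0.15 for SREBF1 (adjusted p = 0.549), 0.08 ± 0.13 for SREBF2 (adjusted p = 0.780), -0.0047 ± 0.066 for SCAP (adjusted p = 0.984), 0.07 ± 0.09 for INSIG1 (adjusted p = 0.703) and -0.06 ± 0.16 for INSIG2 (adjusted p = 0.868). Without the libraries numbered 3 of all groups 10 of the 32 genes rose and LPIN1 fell, when 11.7% of all genes changed. The 10 were PMVK, MVD, IDI1, FDPS, FDFT1, TM7SF2, NSDHL, HSD17B7, EBP and FADS2. Without Ctrl replicate 3 alone HSD17B7 was called, and without TPL replicate 3 alone FDPS and HSD17B7 were, which made 1 and 2 genes. FDPS was at 424 and 438 CPM in TPL replicates 1 and 2 and at 370 CPM in TPL replicate 3, the last within the Ctrl range. The authors' deposited table gave 3 of the 32 genes higher and 1 lower in this comparison, when 6.04% of its genes were called.

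**Figure D4:**
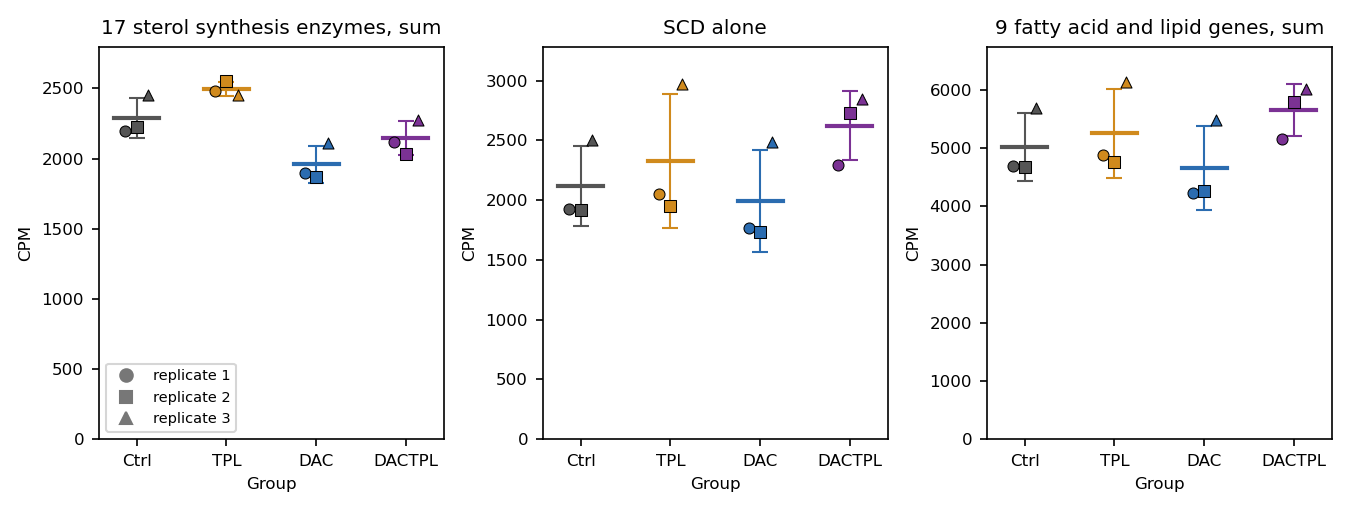
Summed CPM of the 17 sterol synthesis enzymes, CPM of SCD, and summed CPM of the 9 fatty acid and lipid genes (SCD included), by library (circle, square and triangle for replicates 1, 2 and 3), with the group mean as a line and the SD as a bar (n = 3). The sterol sum is 2193 to 2452 CPM in Ctrl and 1872 to 2111 CPM in DAC, whereas the lipid sum overlaps between all groups.

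The summed level of the 17 sterol enzymes was 2193, 2223 and 2452 CPM in Ctrl, 2480.5, 2552 and 2454 CPM in TPL, 1895.5, 1872 and 2111 CPM in DAC, and 2121, 2035 and 2276 CPM in DACTPL. Every DAC library was below every Ctrl library, every TPL library was above it, by little in the case of Ctrl replicate 3, and DACTPL overlapped with Ctrl and DAC. The 9 lipid genes summed to 5021 ± 582 CPM for Ctrl, 5254 ± 761 for TPL, 4656 ± 718 for DAC and 5649 ± 447 for DACTPL, and the groups overlapped. SCD made up 24.9% to 32.4% of the sum of all 32 genes in a library. Without it the sum was 5733 ± 442 CPM for Ctrl, 5995 ± 232 for TPL, 5136 ± 468 for DAC and 5772 ± 265 for DACTPL.

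With both drugs, SREBF1 rose while LPIN1 and ACSS2 fell against Ctrl, and the other 29 genes did not pass the test. In all genes tested 13.5% changed, 8.64% higher and 4.83% lower. The markers COL1A2, PDGFRB and PTPRC rose here too, 3.85-fold, 2.09-fold and 2.95-fold, as did the endothelial PECAM1, 2.28-fold, and KRT8, 1.27-fold (edgeR adjusted p = 0.0127, 0.0103, 0.00919, 0.0257 and 0.00257), and their part was not tested. SREBF1, counted over 2 RefSeq transcripts together, was at 67.95, 71.3 and 91.25 CPM in the Ctrl libraries and at 111, 108.5 and 115 CPM in DACTPL. All DACTPL libraries were above all Ctrl libraries, with a log2 fold change of 0.54 ± 0.15, or 1.45-fold (edgeR adjusted p = 0.0326). The libraries numbered 3 of the other treated groups came near this level, since SREBF1 was at 78.6, 74.35 and 108 CPM in TPL and at 83.8, 93.7 and 107 CPM in DAC. LPIN1 was at 79.8, 83.2 and 85.4 CPM in DACTPL (log2 fold change -0.24 ± 0.05, edgeR adjusted p = 0.00361), and ACSS2 at 108, 98.6 and 107 CPM (log2 fold change -0.24 ± 0.06, edgeR adjusted p = 0.0241). For both genes all DACTPL libraries lay below all Ctrl libraries. SREBF2 was at 188, 193 and 234 CPM in the Ctrl libraries and at 220.4, 247 and 239 CPM in DACTPL, which overlap, with a log2 fold change of 0.20 ± 0.13 (adjusted p = 0.347). SCAP, INSIG1 and INSIG2 were at 0.06 ± 0.07, -0.08 ± 0.09 and 0.02 ± 0.16.

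In DACTPL against Ctrl the median over the 17 sterol enzymes was -0.07, with 10 below 0 and 0 called, 3 of them at an unadjusted p under 0.05 (CYP51A1, EBP and DHCR7, all lower; 28.2% of all genes were at that threshold), and without Ctrl replicate 3 the median was 0.05. Libraries did not overlap for 8 of the 32 genes that were lower in DACTPL (16.3% of all genes) and for SREBF1, which was higher (19.2%). Without the libraries numbered 3 of all groups, 4 genes rose (SREBF1, SREBF2, SCD and FADS2) and 5 fell (FDPS, CYP51A1, DHCR7, LPIN1 and ACSS2), when 24% of all genes changed. The count of 3 became 1 without Ctrl replicate 1, Ctrl replicate 2, DACTPL replicate 2 or DACTPL replicate 3, and 5 without TPL replicate 3, which enters through the shared estimate of the spread. In each of the 4 fits with a count of 1 the gene was LPIN1. SREBF1 was not called without Ctrl replicate 1 or 2, or without any of the DACTPL libraries. On log2(TPM + 1), where the median of all genes was shifted to -0.114, 8 genes were called, all lower, and SREBF1 was not among them, while after rescaling the TPM between libraries the calls were SREBF1, LPIN1 and ACSS2. The authors' deposited table gave 1 of the 32 genes higher and 2 lower, when 12.8% of its genes were called.

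With triptolide added to decitabine, 31 of the 32 genes lay above 0 in DACTPL against DAC, with a median of 0.16 against 0.012 for all genes tested, and 0 genes passed edgeR's test. In all genes 0.0315% did, 0.0189% higher and 0.0126% lower, and DESeq2 also called 0 of the 32. At an unadjusted p under 0.05 there were 5 of 32 genes, a share near the 15.2% of all genes, all higher: IDI1 (0.23), FDFT1 (0.13), HSD17B7 (0.23), SREBF2 (0.30) and INSIG1 (0.22). SREBF2 was at 177, 179.7 and 215 CPM in DAC, below the 220.4 to 247 CPM of DACTPL, and the 95% interval of its log2 fold change ran from 0.02 to 0.59 before adjustment (edgeR adjusted p = 0.304). SREBF1, SCAP, INSIG1 and INSIG2 had log2 fold changes of 0.23 ± 0.15, -0.02 ± 0.07, 0.22 ± 0.09 and 0.17 ± 0.16, with edgeR adjusted p of 0.421, 0.897, 0.283 and 0.576. INSIG1 was at 139, 126 and 153 CPM in DACTPL, overlapping DAC at 112 to 132 CPM. Libraries were wholly higher in DACTPL for 6 genes (9.52% of all genes), namely IDI1, FDFT1, HSD17B7, SREBF1, SREBF2 and STARD4, a carrier of sterols between membranes, and wholly lower for 0 (10.3%). Without the libraries numbered 3 of all groups 9 genes rose, when 13.4% of all genes changed. These were LSS, TM7SF2, NSDHL, SREBF1, SREBF2, INSIG1, FASN, SCD and FADS2. The authors' deposited table called 0 of the 32 genes, when 0.595% of its genes were called.

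The interaction asks whether the effect of both drugs differs from the sum of each alone on the log2 scale. That reading needs the same decitabine dose in DAC and DACTPL, which is not settled. Of the 32 genes 0 passed edgeR's test, 0 by DESeq2 too, and 0.00629% of all genes did. LPIN1 was the sole gene at an unadjusted p under 0.05, with 0.24 ± 0.06 (edgeR adjusted p = 0.193), whereas 16% of all genes were at that threshold. Its mean was 98 CPM for Ctrl, 86.5 for TPL, 79.7 for DAC and 82.8 for DACTPL. All 9 lipid genes lay above 0, with a median of 0.19, against 0.00115 for all genes tested and -0.0073 for the sterol enzymes. SCD had an interaction of 0.26 ± 0.26 and FASN of 0.40 ± 0.26. For the regulators it was 0.05 ± 0.21 for SREBF1, 0.22 ± 0.18 for SREBF2, -0.01 ± 0.09 for SCAP, 0.15 ± 0.12 for INSIG1 and 0.23 ± 0.22 for INSIG2, and the lowest of their adjusted p was 0.566. Without the libraries numbered 3 of all groups, SREBF2 and SCD were called higher, at 0.34 ± 0.10 and 0.45 ± 0.10 (edgeR adjusted p = 0.0471 and 0.0218). That fit held replicates 1 and 2 alone, and 12.9% of all genes changed in it, against 0.00629% with all libraries. The libraries left out had been set apart for their higher level of most of these genes, so these calls are a description and no independent support. On log2(TPM + 1), where the median of all genes was shifted to 0.242, 11 genes were called, all higher, and after rescaling the TPM between libraries 0 were.

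With decitabine added to triptolide, 6 of the 32 genes fell in DACTPL against TPL and 0 rose, when 3.59% of all genes fell, 6.93% rose and 10.5% changed in either direction. All 6 were sterol enzymes: ACAT2, PMVK and FDPS before squalene, and CYP51A1, HSD17B7 and EBP after it. The markers COL1A2, PDGFRB, PTPRC, PECAM1 and KRT8 were called higher in this comparison as well, and EPCAM lower, and their part was not tested. The median over the 17 enzymes was -0.24 against 0.0059 for all genes, and 16 of 17 lay below 0, whereas on log2(TPM + 1) the median was -0.03 when the median of all genes was itself shifted to 0.16. FDPS was at 424, 438 and 370 CPM in TPL and at 325.5, 289 and 333 CPM in DACTPL. The groups did not overlap, with a log2 fold change of -0.38 ± 0.08, and it fell by 23.1% (edgeR adjusted p = 0.00810). EBP was at 70.8, 70.5 and 66.1 CPM in TPL and at 55.2, 49.6 and 54.4 CPM in DACTPL. It likewise had no overlap, with a log2 fold change of -0.38 ± 0.07 (edgeR adjusted p = 0.00361). HSD17B7 was at 34.9, 37.5 and 31.6 CPM in TPL and at 30, 25.6 and 27.4 CPM in DACTPL, where DACTPL replicate 1 came close to TPL replicate 3. Its log2 fold change was -0.33 ± 0.09 (edgeR adjusted p = 0.0348).

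ACAT2, the thiolase at the start of the pathway, was at 110.4, 120 and 95.4 CPM in TPL and at 94.3, 82.9 and 91.7 CPM in DACTPL. TPL replicate 3 was the lowest of its group and lay just above DACTPL, with a log2 fold change of -0.28 ± 0.08 (edgeR adjusted p = 0.0363). PMVK was at 15.5, 17.3 and 16 CPM in DACTPL, below the 18.4 to 20.2 CPM of TPL (log2 fold change -0.25 ± 0.07, edgeR adjusted p = 0.0331). CYP51A1 was at 339.5, 358 and 322 CPM in TPL and at 285, 267 and 311 CPM in DACTPL (log2 fold change -0.24 ± 0.07, edgeR adjusted p = 0.0467). Of the regulators, SREBF1 was higher in every DACTPL library than in every TPL library, at 0.36 ± 0.15 (edgeR adjusted p = 0.153). The highest TPL library was at 108 CPM and the lowest DACTPL library at 108.5 CPM. SREBF2, SCAP, INSIG1 and INSIG2 were at 0.12 ± 0.13, 0.07 ± 0.07, -0.16 ± 0.09 and 0.09 ± 0.16, with edgeR adjusted p of 0.598, 0.556, 0.279 and 0.770. Libraries were wholly lower in DACTPL for 17 genes (12.2% of all genes) and wholly higher for SREBF1 (14.9%). Without the libraries numbered 3 of all groups 15 genes fell and 3 rose (SREBF1, SREBF2 and SCD), when 23.3% of all genes changed. The count of 6 was 2 without TPL replicate 1, 3 without TPL replicate 2 and 3 without DACTPL replicate 2. It was 1 when the 2 groups were fitted alone, and 2 with scaling to total counts. On log2(TPM + 1) 6 genes were called, all higher, and 0 of them were among the 6 above. FDPS and EBP were called without either of TPL replicates 1 and 2 and without DACTPL replicate 2. The authors' deposited table gave 6 of the 32 genes lower and 0 higher, when 10.5% of its genes were called.

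The comparisons DAC against Ctrl and DACTPL against TPL share no library, although they share the estimate of the spread, and both ask what decitabine did. If the 3 nM of the treatment protocol holds for DACTPL, they ask it at different doses. FDPS and CYP51A1 fell in both. HMGCS1, DHCR7, INSIG1 and ACSS2 fell in the first and were at -0.14, -0.25, -0.16 and -0.18 in the second, with adjusted p of 0.322, 0.0925, 0.279 and 0.0799. ACAT2, PMVK, HSD17B7 and EBP fell in the second and were at -0.19, -0.05, -0.20 and -0.23 in the first, with adjusted p of 0.137, 0.673, 0.172 and 0.0519. The difference between the comparisons is the interaction given above, in which 0 of the 32 genes passed. LPIN1 was at -0.06 ± 0.05 in DACTPL against TPL (adjusted p = 0.411).

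Other genes of these pathways were taken from lists set by symbol. Of 13 further sterol and isoprenoid enzymes, 1 fell in DAC against Ctrl and 0 rose (median -0.10), when 3.59% of all genes fell and 6.27% rose. It was MSMO1, the methylsterol oxidase that acts with NSDHL and HSD17B7, at 123, 132 and 139.5 CPM in Ctrl, 167, 176 and 147 CPM in TPL, 106, 99 and 114.5 CPM in DAC, and 132, 118 and 136 CPM in DACTPL. It fell in DAC against Ctrl (log2 fold change -0.30 ± 0.08, edgeR adjusted p = 0.0346) and in DACTPL against TPL (-0.34 ± 0.08, edgeR adjusted p = 0.0171), and its TPL libraries were all above Ctrl. DHDDS, which makes dolichol precursors, was the sole further enzyme called in DACTPL against Ctrl, at -0.22 ± 0.06. Of 11 genes of SREBP processing and degradation 0 changed in DAC or TPL against Ctrl. In DACTPL 1 of them fell against Ctrl and 1 against TPL, when 4.83% and 3.59% of all genes fell. Of 12 tested genes among 13 other SREBP lipid targets 1 rose in DACTPL against Ctrl, the malic enzyme ME1 (0.26 ± 0.08), and 0 were called in DAC or TPL against Ctrl. In DAC against Ctrl 9 of these 12 lay above 0, with a median of 0.096 against 0.0063 for all genes tested. At an unadjusted p under 0.05 there were 2 higher and 0 lower, against 25.9% of all genes.

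Genes of sterol export and storage, many of them targets of the sterol receptor LXR, formed another list. Of 11 tested among 14, 1 rose and 2 fell in DAC against Ctrl (median -0.03), beside the same 6.27% and 3.59% of all genes, and with so few genes the counts are given as a description. ABCA1, which exports cholesterol, was at 25.3, 25.1 and 26.7 CPM in the Ctrl libraries and at 36.1, 33.5 and 34.5 CPM in DAC, with no overlap (log2 fold change 0.43 ± 0.07, edgeR adjusted p = 0.00233). APOE, a lipoprotein component, was at 15.7, 17.7 and 22.8 CPM in the Ctrl libraries and at 9.17, 11.2 and 13.7 CPM in DAC, with a log2 fold change of -0.72 ± 0.15 (edgeR adjusted p = 0.0101). NPC1, which moves cholesterol out of lysosomes, fell by 0.32 ± 0.08 on the log2 scale. In DACTPL against Ctrl ABCA1 and the LXR gene NR1H3 rose, by 0.34 and 0.44 on the log2 scale, and APOE and NPC1 fell, by 0.52 and 0.30. In TPL against Ctrl NPC2, the soluble partner of NPC1, was the sole gene of this list called, at 0.35 ± 0.08. In DACTPL against TPL ABCA1 was at 0.34 ± 0.07, APOE at -0.91 ± 0.15 and NPC2 at -0.30 ± 0.08, all called.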

How the data were processed

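Total RNA libraries were stranded and read as pairs, per the labels' protocols. The deposited tables held expected counts and TPM of each gene in each library. The submitters' processing notes name RSEM 1.2.09 and the build hg19 for what the authors did. The authors' deposited comparison tables held DESeq2 log2 fold changes with their p-values, per the file headers. A deposited table held a z-score per gene and library, a score made by the authors for 704 genes they chose, and 0 of the 32 genes described here were in it. Not given in the sources used here were the aligner, annotation and strand setting.

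Expected counts divide reads that fit several genes, so 64.3% of values lay within 0.005 of a whole number (16.7% for the 32 genes), and they were rounded. Differences were tested in edgeR 4.0.16 under R 4.3.3 with TMM, filterByExpr by group at a minimum count of 10, and a robust quasi-likelihood fit to the 12 libraries together. P-values were two-sided and Benjamini-Hochberg adjusted over 15890 genes, and calls were made under an adjusted p of 0.05. The biological coefficient of variation was 9.03%. CPM are normalized to TMM library sizes, and intervals are 95%. The procedure was tested on simulated data for DAC against Ctrl. It recovered 32% of 50 genes changed 1.25-fold and 94% of 50 changed 1.5-fold, and 10 of its 169 calls were unchanged genes. A gene that did not pass may thus still have changed by about 1.25-fold. The 6 comparisons were each treated group against Ctrl, both drugs against either alone, and the interaction. The first 3 share the Ctrl libraries. Alternatives were DESeq2 1.42.0, limma 3.58.1 on log2(TPM + 1) or log2(TPM + 0.1), other scalings and filters, a replicate block, removal of a trend on gene length, and leaving out libraries. The genes, lists, groups and tests were chosen with earlier results of these data known. Any of the 32 genes could be named. Of each further list up to 4 called genes by size of change could be named per comparison. GC content was that of the transcript and was known for 13502 genes. Gene lengths are relative, from the ratio of counts to TPM. Promoter windows ran from 250 bases before the RefSeq start.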

Additional observations from a re-analysis of the deposited data

How the results depend on the processing

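The counts of called genes, among the 32, moved with several settings. For the fits without the libraries numbered 3, the shares of all genes called are given above. For the other settings such shares are not given here, so those counts describe the settings and are no result about the 32 genes. In DAC vs Ctrl the 7 became 12 with limma on log2(TPM + 1) and 12 on log2(TPM + 0.1), and 13 without the libraries numbered 3 of all groups. Leaving out each library in turn gave 2 to 9. In TPL vs Ctrl the 0 became 4 with DESeq2, 1 with scaling to total counts, 1 with a stricter filter (minimum count 50), 16 with either TPM setting and 11 without the libraries numbered 3, and leaving out libraries gave 0 to 2. In DACTPL vs Ctrl the 3 became 8 with either TPM setting and 9 without the libraries numbered 3, and leaving out libraries gave 1 to 5. In DACTPL vs DAC the 0 became 9 without the libraries numbered 3 and stayed 0 with each single library left out. In DACTPL vs TPL the 6 became 2 with scaling to total counts, 1 with the 2 groups fitted alone and 18 without the libraries numbered 3, and leaving out libraries gave 2 to 8. For the interaction the 0 became 11 with either TPM setting and 2 without the libraries numbered 3. For INSIG1, TPL vs Ctrl turned from 0.07 to -0.30 on log2(TPM + 1) (limma adjusted p = 0.0174) and to -0.304 on log2(TPM + 0.1) (limma adjusted p = 0.0163). TPM moved the median of all genes by -0.29 in TPL vs Ctrl, -0.114 in DACTPL vs Ctrl, 0.164 in DACTPL vs TPL and 0.242 in the interaction, and RPPH1 alone held 15% ± 1.99 of the TPM in TPL and 8.12% ± 0.8 in Ctrl. With TPM rescaled by a TMM factor, an alternative chosen after seeing the data, the counts were 5, 0, 3, 0, 6 and 0 in the order above. The part of RPPH1 in the shifts on TPM was not tested, nor were the causes of any of the moves.

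Replicate numbers as a whole were not shown to pair the libraries, but the libraries numbered 3 resembled one another. Of 18 same-number pairs 12 had deviations correlated over 0.1 (range -0.193 to 0.523), among them all 6 pairs of libraries numbered 3 (0.143 to 0.523). In all, 6 of 12 libraries correlated best with their own number, and every library numbered 3 was among these. The main fit held no term for the replicate number. With a replicate block, the counts were 13, 7, 6, 3, 11 and 0 in the order above, and with the length trend also taken off 15, 3, 10, 8, 13 and 0. The block thus gave more calls in 5 comparisons. A further 105 counts under the alternatives stayed within 1.5 times. Depth gave each of these genes at least 407 counts in every library, and 3 libraries per group limit which differences can pass.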

Other observations

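Outside the lists, the 8 genes whose log2 CPM had the highest Pearson correlation with the mean log2 CPM of the 32 genes over the 12 libraries were SFTPB (0.983), PFKFB4 (0.977), SEMA4B (0.976), EBF4 (0.973), SFRP1 (0.973), CEMIP (0.971), SEMA6B (0.97) and MEGF6 (0.97). The libraries of a group share their treatment, so these values describe both the groups and the spread within them. After the group means were taken off, the correlations were between 0.933 (SFRP1) and 0.972 (SEMA6B). SFTPB, a surfactant protein, was at 19.5, 18.9 and 50.5 CPM in Ctrl, 39.4, 36.5 and 86.6 CPM in TPL, 6.53, 7.03 and 20.8 CPM in DAC, and 23.6, 26.9 and 30.4 CPM in DACTPL. It was highest in replicate 3 of every group. PFKFB4, a regulator of glycolysis, was at 18.9, 18.4 and 24.1 CPM in Ctrl and at 15.3, 14.5 and 20.8 CPM in DAC. CEMIP, a hyaluronan-binding protein, was at 73.8, 72.2 and 99.2 CPM in Ctrl, 97.7, 91.9 and 132 CPM in TPL, 40.2, 40 and 70.9 CPM in DAC, and 79.4, 87 and 92.6 CPM in DACTPL. In both genes replicate 3 was again the highest of Ctrl and DAC.

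MBTPS2, a protease that releases active SREBP, had a library that stood apart. It was at 14.9, 13.2 and 14.4 CPM in Ctrl, 10.3, 9.8 and 20.6 CPM in TPL, 8.98, 9.64 and 14.2 CPM in DAC, and 8.12, 31.8 and 17.7 CPM in DACTPL. DACTPL replicate 2, the highest, was also the highest library of all 12 for INSIG2, at 22.6 CPM, and for ELOVL6, at 64.4 CPM. This observation was made after the values were seen.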
